A study of Homo sapiens with 6 samples.

Results

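The 43 genes described here encode the heat shock chaperones of the cytosol, the nucleus and the mitochondria, their partner proteins, and 2 of the transcription factors that control them. They were taken by symbol from a list of names that sets no threshold on their values but was drawn up with earlier results of these data known. They are 43 of the 60669 genes in the count files. The list holds 9 genes of the Hsp70 and Hsp110 families (HSPA1A, HSPA1B, HSPA2, HSPA4, HSPA4L, HSPA8, HSPA9, HSPA14 and HSPH1), 3 of the Hsp90 family (HSP90AA1, HSP90AB1 and TRAP1), the mitochondrial Hsp60 and Hsp10 genes HSPD1 and HSPE1, and the small heat shock gene HSPB1. It also holds 9 J-domain genes (DNAJA1, DNAJA2, DNAJA3, DNAJA4, DNAJB1, DNAJB4, DNAJB6, DNAJC2 and DNAJC7), 9 co-chaperone genes (BAG2, BAG3, STIP1, AHSA1, CHORDC1, ST13, FKBP4, CACYBP and PTGES3), the heat shock factor genes HSF1 and HSF2, and the 8 subunit genes of the cytosolic chaperonin CCT. Their messenger RNA was measured by sequencing total RNA of 293T cells, an established human embryonic kidney line that carries the SV40 large T antigen. There were 3 groups of 2 libraries: wild-type control cells, cells with MLL2 knocked out by CRISPR/Cas9, and cells in which a short hairpin RNA lowered PRMT1. The labels list no treatment for any group, do not say whether the knockout is 1 clone, and do not say whether control and knockout cells carried a hairpin of their own. PRMT1 is an arginine methyltransferase and MLL2 a histone H3 lysine 4 methyltransferase, and the study asked which genes change when either is depleted.

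Chaperones bind unfolded stretches of other proteins and let them go again in cycles driven by ATP. Hsp70 proteins do most of the early binding, J-domain proteins bring them their clients and start ATP hydrolysis, and exchange factors such as the Hsp110 and BAG proteins release the nucleotide. Hsp90 takes over partly folded clients such as kinases and steroid receptors from Hsp70, while the chaperonins HSPD1 with HSPE1 in mitochondria and CCT in the cytosol enclose a client in a chamber, actin and tubulin being the best known clients of CCT. Many of these genes are heat-inducible: HSF1 is held inactive by chaperones in unstressed cells and, once free, binds heat shock elements, inverted repeats of the unit GAA, in their promoters.

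Heat shock elements were looked up in the promoters because many members are textbook targets of HSF1. Not all such targets rose: BAG3 passed no test below, and HSPB1 was called lower in both depletions. Of 9 tested further heat-inducible targets of HSF1, none rose and 2 fell in the knockout, while 3 rose and 1 fell in the knockdown. Their shares are given at the end. RefSeq promoter windows on GRCh38.p14, from 250 bases before to 50 bases after the start of the gene, were matched for 38 of the 43 members. HSPA14, ST13, FKBP4, HSF1 and CCT6A were not matched. A single window was searched per gene, so that other starts of the same gene were not covered. The motif searched was 3 alternating units, GAANNTTCNNGAA or TTCNNGAANNTTC, which are reverse complements of each other, so that both strands are covered. Of the 38 windows 4 held it (10.5%), those of HSPA8, DNAJA1, DNAJB6 and CHORDC1, against 172 of 35116 windows of all genes (0.490%). The shorter forms GAANNTTC or TTCNNGAA, which also lie inside every longer match, were in 11 of the 38 windows (28.9%) and in 4737 of all windows (13.5%). A match describes letters in the window and is not a measured binding site. Only exact matches were counted, so that a window without one is not shown to lack an element. The windows of the heat-inducible genes HSPA1A and HSPA1B held only the shorter form, and those of DNAJB1 and BAG3 held neither. The matches upstream of 3 genes are printed 5′ to 3′ along the strand of the gene, with the alternating units and the bases between them in capitals.
HSPA8, 230 to 218 bases before the start, chr11:123062340-123062380, minus strand: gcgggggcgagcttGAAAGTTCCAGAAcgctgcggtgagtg
HSPA8, 55 to 43 bases before the start, chr11:123062165-123062205, minus strand: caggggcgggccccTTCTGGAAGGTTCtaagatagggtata
DNAJB6, 131 to 119 bases before the start, chr7:157336859-157336899, plus strand: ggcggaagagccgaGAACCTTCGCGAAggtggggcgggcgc
CHORDC1, 60 to 38 bases before the start, chr11:90223073-90223123, minus strand: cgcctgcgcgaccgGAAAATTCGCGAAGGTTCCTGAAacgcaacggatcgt
HSPA8 thus held 2 separate runs of 3 units, and CHORDC1 an unbroken run of 5 units. The match of DNAJA1 lies just past its start.

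The 6 libraries held 20061471 to 22351532 counts, and 17575 genes passed the filter on low counts. Levels are given as CPM, the usual depth-scaled count, after TMM scaling between libraries. PRMT1 stood at 306 and 319 CPM in the control libraries and at 38.2 and 34.9 CPM in the knockdown libraries (log2 change -3.10 ± 0.09 SE, edgeR adjusted p = 5.5e-16). The name MLL2 has been used for KMT2B and for KMT2D, and the knockout libraries were not lower than both controls for either gene (KMT2B log2 change 0.02 ± 0.25, KMT2D 0.19 ± 0.26), so the counts do not check that label. PRMT1 was higher in the knockout, at 406 and 425 CPM (0.41 ± 0.08, edgeR adjusted p = 0.00089). In the knockdown KMT2B was higher, at 13.4 and 26.7 CPM (1.49 ± 0.24, adjusted p = 3.1e-05). KMT2D was higher there too, at 37.8 and 95.5 CPM (1.76 ± 0.25, adjusted p = 8.4e-06). The part of these changes in the comparisons below was not tested. The 5 transcripts taken as marks of 293T cells (VIM, NEFL, NEFM, LIN28B and TERT) were counted in every library, but their sum was lower in the knockout (805 and 800.5 CPM) than in control (1107 and 1109.9), with 1024 and 952 in the knockdown. NEFL stood at 347 and 352 CPM in control, 156 and 153 in the knockout and 56.6 and 53.3 in the knockdown. The part of such differences between the cells in the chaperone changes was not tested. The 8 markers of blood, liver, vessel, fibroblast, skin and muscle cells summed to 3.58 to 5.53 CPM, CD3E and KRT5 being at 0 in all 6 libraries. The knockdown libraries stood apart from each other for these chaperones: 37 of the 40 tested members were lower in replicate 2 than in replicate 1, with a median log2 difference of -0.21, against 56.2% of all 11463 comparable genes with a median of -0.04. In the knockout 31 of the 40 were lower in replicate 2, against 50.3% of all genes, with a smaller median of -0.035. In control 23 were lower, against 51.3% of all genes, with a median of -0.009.

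Of the 43 members, 41 had a count in some library and 40 passed the filter. The best known heat-inducible pair could not be measured here: HSPA1A (chromosome 6, 31815543 to 31817946) and HSPA1B (31827738 to 31830254), near-identical copies of the inducible Hsp70 gene, were listed at 0 counts in all 6 libraries. Genes further out on either side were counted, LSM2 with 463 to 828 and NEU1 with 376 to 561 counts a library. Their relative HSPA1L, which lies between LSM2 and HSPA1A, was also at 0. Counting required a mapping quality of at least 10, which reads that match several places equally do not reach, and 36.6% of the exon bases of HSPA1B are shared with another annotated gene. Of the 64 protein-coding genes that start between 31 and 32 Mb on chromosome 6, 24 had no count at all (37.5%), against 17.5% of all 19881. Whether the reference used held alternate copies of this region is not given in the sources used here, and the reason for these zeros was not tested. A count of 0 allows up to 3 counts, or 0.132 to 0.150 CPM, of reads that could be placed there, and says nothing of reads that could not. DNAJA4 had 1 count in control replicate 2 and 1 in knockout replicate 2.

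The 40 tested members differed widely in their control levels. Divided by exon length, HSP90AB1, the constitutive cytosolic Hsp90, was the most abundant with 531 and 527 CPM per kb in the 2 control libraries. HSPA8, the constitutive Hsp70 known as Hsc70, followed with 490.1 and 454 CPM per kb. CCT3 stood at 406 and 402, HSPD1 at 341.3 and 340.8, CCT4 at 334 and 338, and CCT7 at 300.4 and 299 CPM per kb. HSPD1 and CCT4, next to each other in this order, lay close together without overlapping. All 8 CCT genes were among the 12 most abundant members, although the complex uses 1 copy of each subunit per ring and their levels per kb still ranged from 130.03 for CCT6A to 404 for CCT3. The heat-inducible Hsp90 gene HSP90AA1 stood at 101 and 111 CPM per kb, close to DNAJA1 at 113 and 109. At the low end were BAG3 with 4.996 and 6.02, BAG2 with 3.80 and 3.96, and HSPA2, best known from the testis, with 1.05 in both control libraries. Exon lengths cover all annotated transcripts of a gene, so genes with long unused exons, such as DNAJB6, read too low on this scale.

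**Figure D1:**
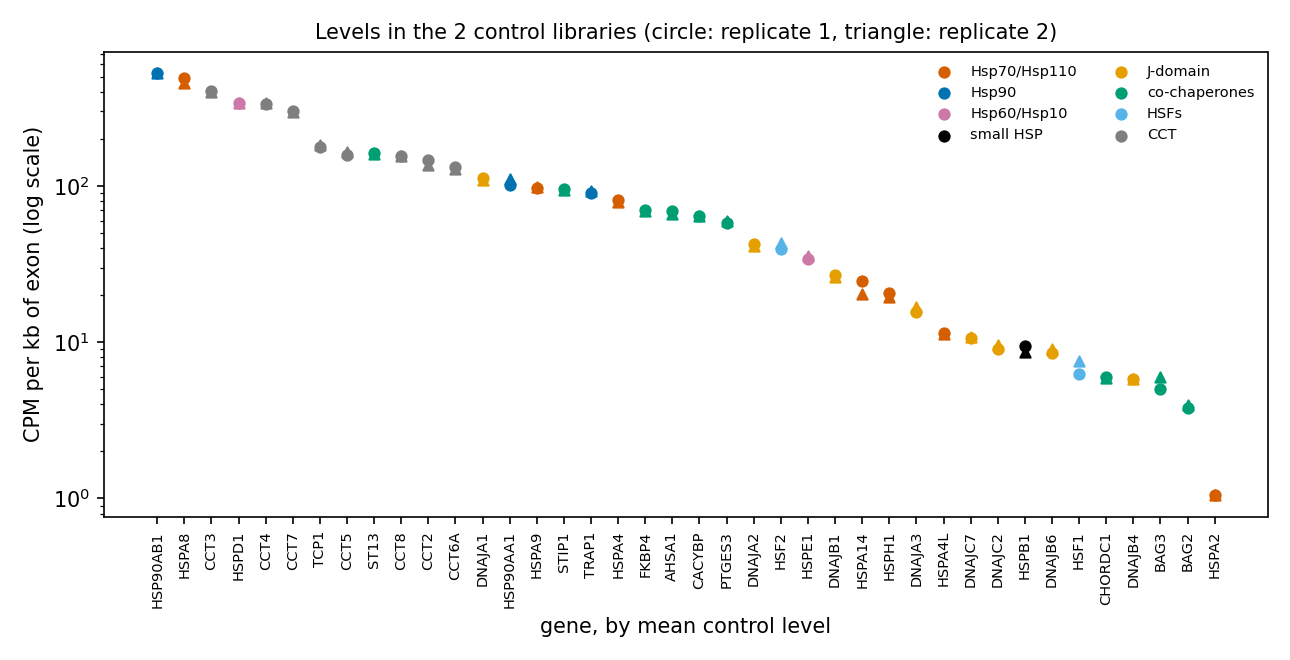
Level of each of the 40 tested members in the 2 control libraries, in CPM per kb of exon on a log axis, ordered by the mean and coloured by role (circle, replicate 1; triangle, replicate 2). HSP90AB1, HSPA8 and the CCT genes sit at the left, and HSPA2 at the right with 1.05 CPM per kb.

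In the MLL2 knockout the chaperone transcripts moved mainly upward. Of the 40 tested members 23 were higher than control and 4 lower at an adjusted p under 0.05 (edgeR), which is 57.5% and 10% of them, where 10.3% and 12.1% of all 17575 tested genes were called higher and lower. Among the 11509 tested genes above an average log2 CPM of 2 the shares were 15.0% and 14.2%. This is a floor that all tested members pass and most exceed widely, so these genes are not matched to the members in level. The median log2 change of the members was 0.28, against -0.01 over all tested genes, and single members ranged from -1.24 to 0.91. Both knockout libraries lay above both control libraries for 32 members and below them for 5, where 30.1% and 32.5% of all genes did so. Together the 43 genes summed to 18364 and 18204 TMM-scaled CPM in the control libraries, and to 23633 and 23039 in the knockout libraries. In bulk RNA, more transcript in every cell and more cells that make it cannot be told apart. All fits rest on 2 libraries a group, described as biological replicates, and the p-values measure the spread between such libraries. Leaving out control replicate 1, control replicate 2, knockout replicate 1 or knockout replicate 2 gave 14, 10, 10 and 14 calls in place of 27, with 11.3%, 10.04%, 11.4% and 11.8% of all genes called in place of 22.4%. The calls of 9 members (CCT6A, CHORDC1, DNAJA1, DNAJC2, HSP90AA1, HSPA2, HSPA8, HSPE1 and HSPH1) held under all 15 alternatives, and the other 18 lost theirs in at least 1 of them.

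In the PRMT1 knockdown the same genes moved in both directions. Here 14 of the 40 were higher and 9 lower, 35% and 22.5%, where 22.2% and 25.3% of all tested genes were called (47.4% in either direction). Among the 11509 genes above an average log2 CPM of 2 the shares were 28.9% and 31.7%. The share of members called in either direction was thus near that of genes above this floor, which are not matched to the members in level. The median log2 change of the members was 0.01, against -0.04 over all tested genes, with a range from -1.26 to 0.83. Both knockdown libraries lay above both controls for 17 members and below them for 14, against 35% and 38.5% of all genes. The split depended on the scaling: with relative log expression 15 were higher and 6 lower, and with a correction for transcript length 16 and 6, so that 71.4% and 72.7% of the calls were upward in place of 60.9%. A correction for GC content and length together gave 17 and 11 (60.7%). It depended on the library as well, since without knockdown replicate 1 there were 14 higher and 16 lower, and without replicate 2 there were 17 higher and 7 lower. Of the 23 calls 15 held under all 15 alternatives, those of BAG2, CCT3, CCT6A, CCT7, DNAJA1, DNAJB4, DNAJB6, DNAJC2, HSP90AA1, HSPA4, HSPA8, HSPB1, HSPH1, ST13 and TCP1. The summed level in the knockdown libraries was 21257 and 18720 CPM, so that both lay above both controls. On this scale the result rested on HSPA8. Without it the other members summed to 15988 and 16001 CPM in control and 19238 and 18855 in the knockout. In the knockdown they summed to 16880 and 14980.0, where replicate 2 lay below both controls. These sums are TMM-scaled, with factors of 0.973 and 0.972 in control and 1.03 and 1.08 in the knockdown, and are not shares of the counted reads. The place of replicate 2 below the controls depends on this scaling.

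**Figure D2:**
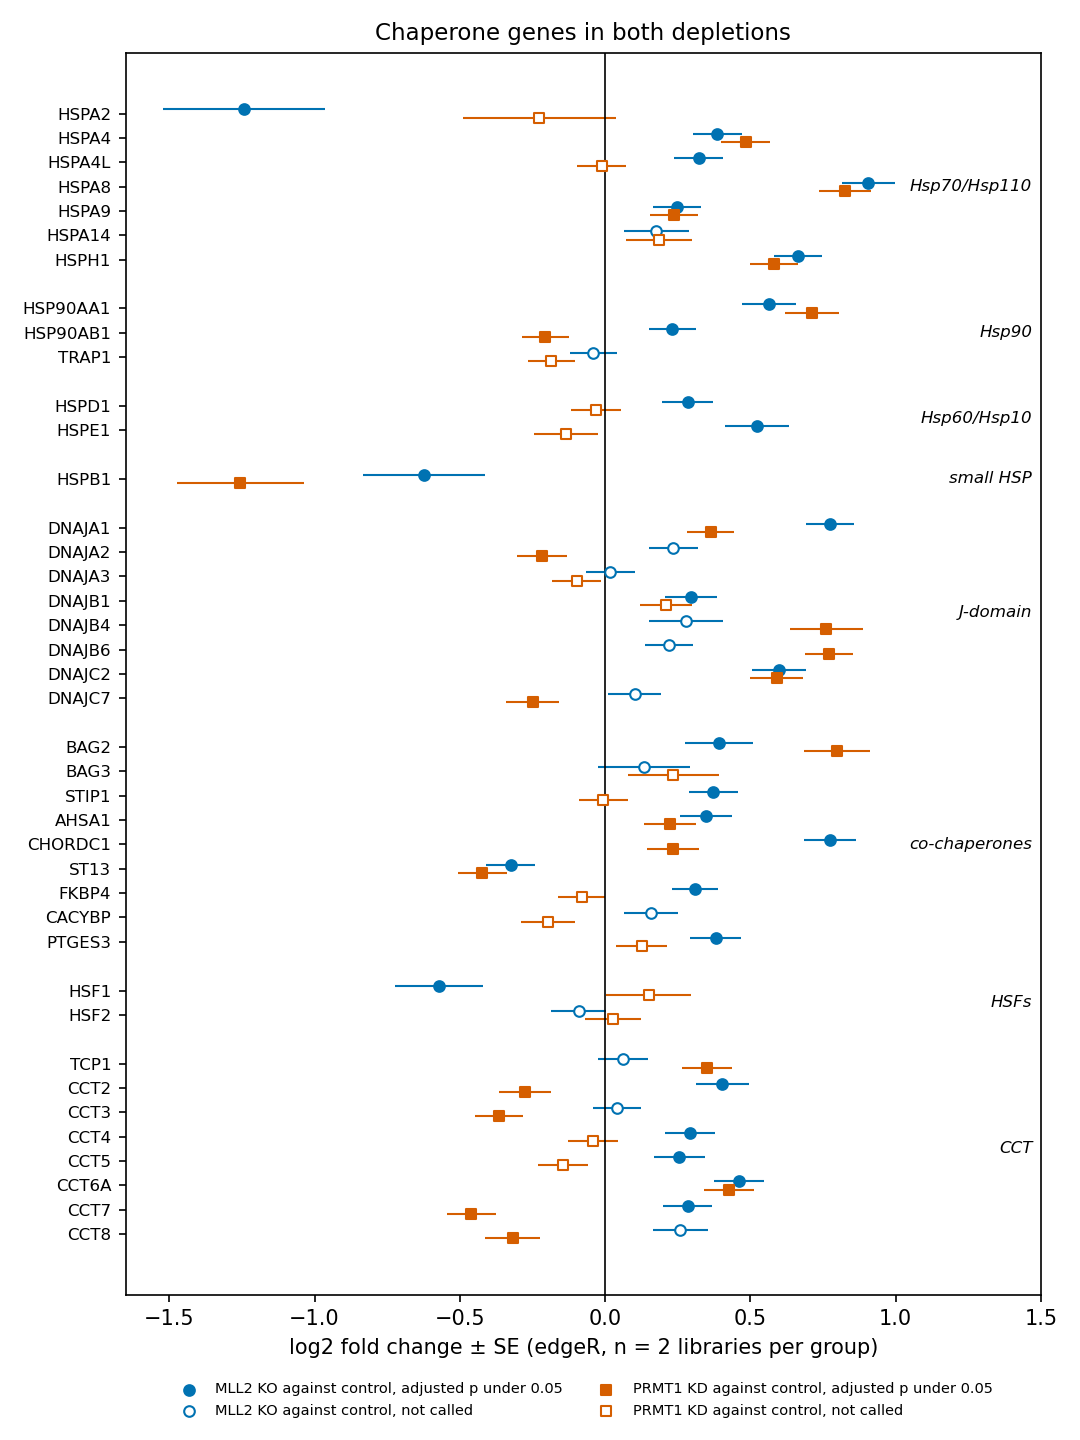
Log2 fold change against control with its standard error for each tested member, in the MLL2 knockout (blue circles) and the PRMT1 knockdown (orange squares), both set against the same 2 control libraries. Filled symbols have an edgeR adjusted p under 0.05, and most blue symbols lie right of 0 while the orange ones lie on both sides.

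The counts by role that follow are of few genes each, and the shares to read them against are those of genes above an average log2 CPM of 2, given with the totals. The Hsp70 and Hsp110 genes included the most strongly raised member, HSPA8. HSPA8 (ENSG00000109971, chromosome 11, 123057489 to 123063230) stood at 2377 and 2203 CPM in control, 4394 and 4184 in the knockout, and 4378 and 3739.6 in the knockdown. All 4 depleted libraries lay far above both controls. The change was 1.87-fold in the knockout (log2 0.91 ± 0.09, adjusted p = 5.9e-07) and 1.77-fold in the knockdown (0.83 ± 0.09, adjusted p = 2.4e-07). The depletions did not differ beyond their spread (-0.08 ± 0.09). HSPH1 (chromosome 13, 31134973 to 31162388) encodes Hsp110, which both releases nucleotide from Hsp70 and holds unfolded protein. It went from 174 and 164 CPM in control to 265 and 269 in the knockout (0.66 ± 0.08, adjusted p = 8.1e-06) and to 263 and 242 in the knockdown (0.58 ± 0.08, adjusted p = 5.8e-06). Its relative HSPA4 (chromosome 5, 133052013 to 133106449) went from 415 and 403 CPM to 545 and 524 in the knockout (0.39 ± 0.08, adjusted p = 0.0022) and to 613 and 531 in the knockdown (0.48 ± 0.08, adjusted p = 7.5e-05). For HSPH1 and HSPA4, too, no depleted library reached down to a control.

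The other Hsp70 genes moved less or differently. HSPA4L, a further Hsp110 relative, rose in the knockout (131 and 129 CPM in control, 162 and 163 in the knockout, 0.32 ± 0.08, adjusted p = 0.0084). It stood at 135 and 122 CPM in the knockdown, around the controls. HSPA9, the mitochondrial Hsp70 that pulls proteins through the inner membrane, stood at 769 and 783 CPM in control, 927 and 917 in the knockout and 969 and 862 in the knockdown. Its rise was small and alike in size in both depletions (0.25 ± 0.08, adjusted p = 0.034, and 0.24 ± 0.08, adjusted p = 0.021). In the knockdown the length correction did not keep the call (0.17, adjusted p = 0.086). HSPA14, which works at the ribosome, did not pass the test in either (0.18 ± 0.11 and 0.19 ± 0.11). HSPA2 (chromosome 14, 64535905 to 64546173) fell in the knockout, from 6.04 and 6.05 CPM in control to 2.36 and 2.75 (log2 change -1.24 ± 0.28, adjusted p = 0.0027). It stood at 5.46 and 4.87 CPM in the knockdown, below both controls without passing the test (-0.23 ± 0.26, adjusted p = 0.50). It was the weakest of the 40 members, with 51 counts in knockout replicate 1.

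The cytosolic Hsp90 genes differed from each other. HSP90AA1 (chromosome 14, 102080742 to 102139699), the inducible form, stood at 517 and 565 CPM in control, 769.5 and 830.0 in the knockout and 805 and 968 in the knockdown. It was 1.48-fold higher in the knockout (0.56 ± 0.09, adjusted p = 0.00017) and 1.64-fold higher in the knockdown (0.71 ± 0.09, adjusted p = 2e-06). HSP90AB1 (chromosome 6, 44246166 to 44253888), the constitutive form, stood at 1582 and 1572 CPM in control and rose to 1867 and 1836 in the knockout (0.23 ± 0.08, adjusted p = 0.043). It stood at 1418 and 1314 in the knockdown (-0.21 ± 0.08, adjusted p = 0.040). The 3 groups did not overlap, but both changes were small: the adjusted p of the fall went to 0.077 with relative log expression and to 0.61 with the length correction. The fall lost its call without control replicate 1, control replicate 2, knockout replicate 1 or knockout replicate 2 (adjusted p 0.18, 0.16, 0.11 and 0.12), and the rise without any one of the same 4 libraries (0.22, 0.25, 0.31 and 0.22). The direct difference between knockdown and knockout (-0.44 ± 0.08, adjusted p = 0.00018) kept its call under all 15 alternatives. TRAP1, the mitochondrial Hsp90, did not pass the test in the knockout (-0.04 ± 0.08) or in the knockdown (-0.18 ± 0.08, adjusted p = 0.063).

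HSPD1 and HSPE1 encode Hsp60 and its lid Hsp10, and they are transcribed away from each other from starts 105 bases apart on chromosome 2 (197500274 on the minus strand and 197500379 on the plus strand). Both rose in the knockout. HSPD1 went from 1407 and 1405 CPM to 1745 and 1680.4 (0.28 ± 0.09, adjusted p = 0.023), and HSPE1 from 61.8 and 65.2 to 96.4 and 85.9 (0.52 ± 0.11, adjusted p = 0.0017). In the knockdown HSPD1 stood at 1492 and 1259 CPM and HSPE1 at 65.3 and 50.5, and for both genes the 2 controls lay between the 2 knockdown libraries. The knockdown was lower than the knockout for both, by log2 -0.32 ± 0.09 (adjusted p = 0.0063) and -0.66 ± 0.11 (adjusted p = 6.4e-05). HSPE1 shares 10.5% of its exon bases with the readthrough gene HSPE1-MOB4 and has 26 annotated pseudogenes named after it, so that reads from these cannot all be told apart. Its level is not set against that of HSPD1 here. Over the 5 mitochondrial members (HSPA9, TRAP1, HSPD1, HSPE1 and DNAJA3) 3 rose in the knockout, with a median log2 change of 0.25, and 1 in the knockdown, with a median of -0.10.

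HSPB1 (chromosome 7, 76302673 to 76304295), the small heat shock protein Hsp27 that holds unfolded proteins without using ATP, was called lower in both depletions, as was ST13. It stood at 14.3 and 12.9 CPM in control, 9.85 and 7.80 in the knockout and 6.82 and 4.61 in the knockdown, with no overlap between the 3 groups. The knockdown level was 2.39-fold lower than control (log2 change -1.26 ± 0.22, adjusted p = 7e-05). The knockout change was -0.62 ± 0.21 (adjusted p = 0.038), which went to an adjusted p of 0.079 with DESeq2 and to 0.20, 0.10 and 0.27 without control replicate 1, control replicate 2 or knockout replicate 2. The knockdown was also below the knockout (-0.63 ± 0.22, adjusted p = 0.027). That call was ended by 7 of the 15 alternatives, among them DESeq2 (adjusted p = 0.057), the length correction (-0.35, adjusted p = 0.20) and leaving out knockout replicate 1 (0.21) or knockdown replicate 2 (0.24).

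Of the 8 tested J-domain genes 3 rose in the knockout (37.5%, against 15.0% of genes above an average log2 CPM of 2). In the knockdown 4 rose and 2 fell (50% and 25%, against 28.9% and 31.7%). DNAJA1 (chromosome 9, 33025273 to 33039907), a farnesylated partner of Hsp70 in the cytosol, stood at 301 and 290.0 CPM in control, 504 and 506 in the knockout and 398 and 361 in the knockdown. It was 1.71-fold higher in the knockout (0.77 ± 0.08, adjusted p = 1e-06) and rose in the knockdown too (0.36 ± 0.08, adjusted p = 0.00087). The knockdown was below the knockout (-0.41 ± 0.08, adjusted p = 0.00033). DNAJC2, the J-domain partner of HSPA14 at the ribosome, rose by like amounts in both: from 60.2 and 64.3 CPM to 92.9 and 95.7 (0.60 ± 0.09, adjusted p = 9e-05) and to 98.6 and 89.1 (0.59 ± 0.09, adjusted p = 2e-05). DNAJB1, the partner of Hsp70 in dissolving aggregates and in switching HSF1 off, rose in the knockout (97.6 and 95.9 to 120.4 and 117 CPM, 0.30 ± 0.09, adjusted p = 0.023). It stood at 121 and 103 CPM in the knockdown (0.21 ± 0.09, adjusted p = 0.063).

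DNAJB6 and DNAJB4 showed larger changes in the knockdown than in the knockout. DNAJB6 (chromosome 7, 157335381 to 157417439), which keeps polyglutamine proteins from aggregating, stood at 127 and 136 CPM in control, 155 and 152 in the knockout and 231 and 219 in the knockdown. The knockdown was 1.71-fold above control (0.77 ± 0.08, adjusted p = 1.6e-07) and above the knockout (0.55 ± 0.08, adjusted p = 1.6e-05). The knockout against control just missed the test (0.22 ± 0.08, adjusted p = 0.059) and passed it under 8 of the 15 alternatives. DNAJB4 stood at 21.6 and 21.4 CPM in control, 26.3 and 25.9 in the knockout and 39.5 and 33.4 in the knockdown (0.76 ± 0.13, adjusted p = 4.1e-05, and against the knockout 0.48 ± 0.12, adjusted p = 0.0036). DNAJA2, the sister of DNAJA1, fell in the knockdown (210.3 and 203 CPM in control, 191 and 165 in the knockdown, -0.22 ± 0.09, adjusted p = 0.042). It stood at 248 and 238 CPM in the knockout (0.24 ± 0.09, adjusted p = 0.053, called under 10 of the 15 alternatives). DNAJC7, which binds both Hsp70 and Hsp90, stood at 137 and 140.1 CPM in control, 149.5 and 148 in the knockout and 127 and 106 in the knockdown, where it fell (-0.25 ± 0.09, adjusted p = 0.029). Both falls were lost without control replicate 1 (adjusted p 0.21 and 0.096), control replicate 2 (0.11 and 0.15) or knockdown replicate 2 (0.20 and 0.23), and under relative log expression (0.081 and 0.055). DNAJA3, the mitochondrial J-domain protein, stood at 106 to 119 CPM in all 6 libraries and passed no test (0.02 ± 0.08 and -0.10 ± 0.08).

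**Figure D3:**
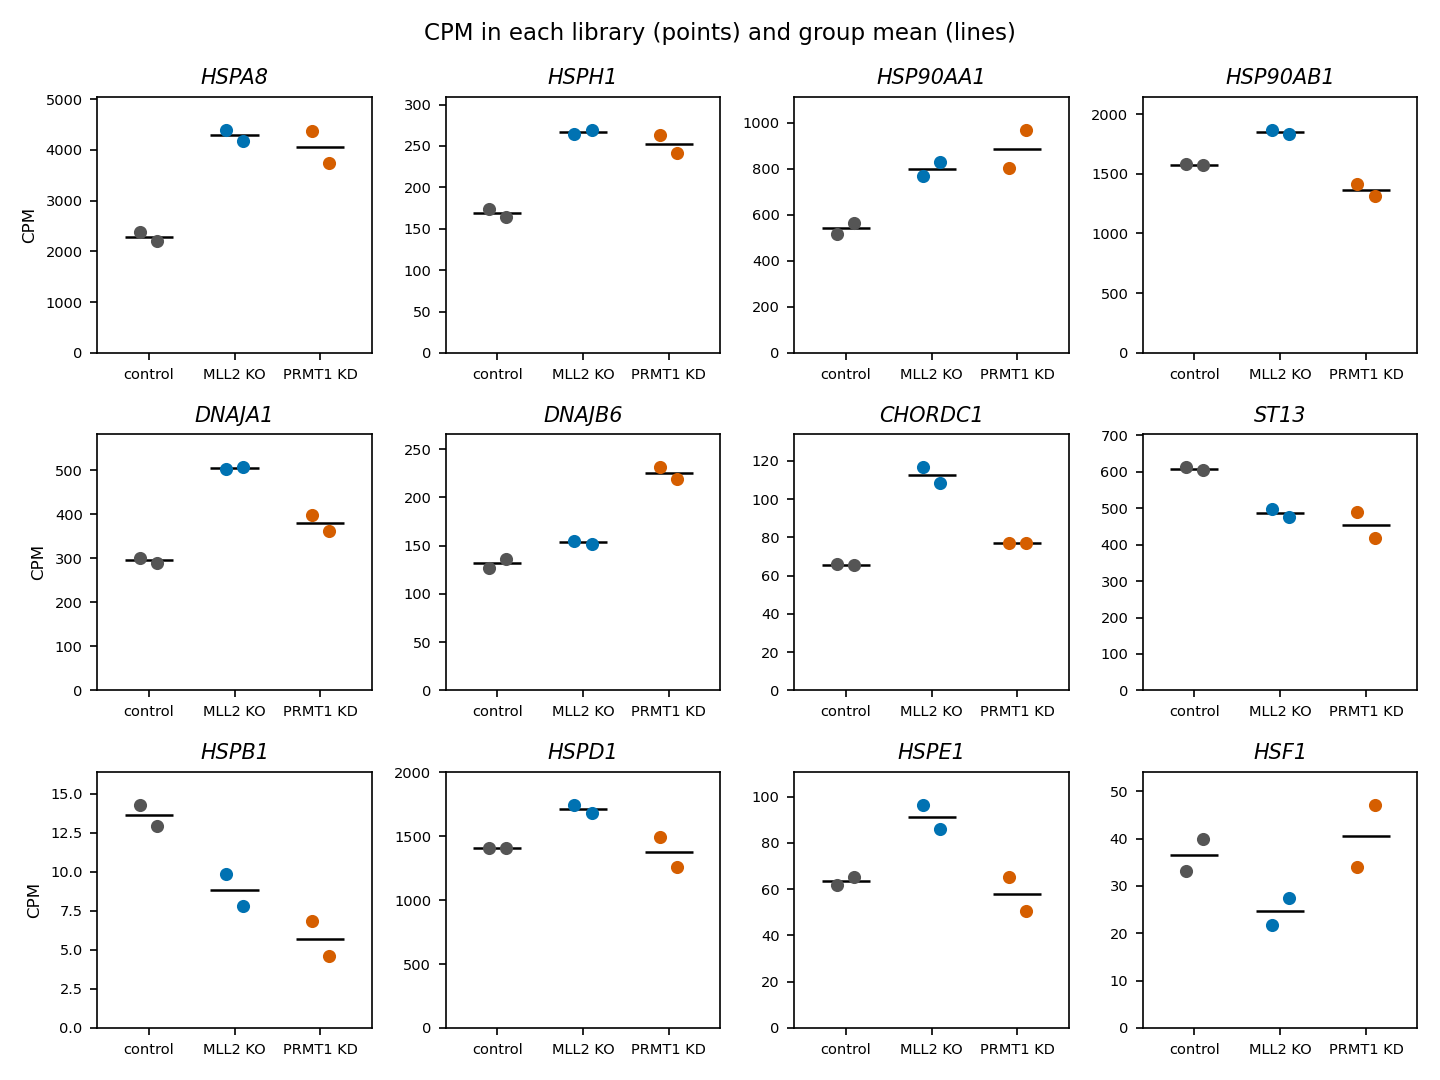
CPM of 12 members in each library, with points for the 2 libraries of a group and a line for their mean, on axes that start at 0. HSPA8, HSPH1 and HSP90AA1 are above control in all 4 depleted libraries, HSP90AB1 lies on different sides of control in the 2 depletions, and HSPB1 and ST13 are below control in both.

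Of the 9 co-chaperone genes 6 rose and 1 fell in the knockout, and 3 rose and 1 fell in the knockdown. CHORDC1 (chromosome 11, 90200429 to 90223077), an Hsp90 partner whose promoter holds the 5-unit run printed above, went from 66.1 and 65.3 CPM in control to 116 and 108 in the knockout, 1.71-fold (0.77 ± 0.09, adjusted p = 3.3e-06). In the knockdown it stood at 77.3 and 77.2 CPM (0.23 ± 0.09, adjusted p = 0.036), a call that the length correction did not keep (0.09, adjusted p = 0.41) and that was lost without any one control or knockout library (adjusted p 0.15 and 0.19 for controls 1 and 2, 0.086 and 0.074 for knockouts 1 and 2). The knockdown was well below the knockout (-0.54 ± 0.09, adjusted p = 4.4e-05). BAG2, an exchange factor that restrains the ubiquitin ligase CHIP, was higher in the knockdown than in the knockout: 25.3 and 26.3 CPM in control, 34.8 and 32.9 in the knockout (0.39 ± 0.12, adjusted p = 0.018), 47.2 and 42.5 in the knockdown (0.80 ± 0.11, adjusted p = 7.3e-06). The difference between them was tested directly (0.41 ± 0.11, adjusted p = 0.0062).

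STIP1, PTGES3, FKBP4 and AHSA1 serve successive steps of the Hsp90 cycle, and all 4 rose in the knockout. None of these 4 knockout calls held with each library left out. That of FKBP4 was lost without any one control or knockout library, and that of AHSA1 without control replicate 2 or either knockout library. The call of STIP1 was lost without control replicate 2 or knockout replicate 1, and that of PTGES3 without control replicate 1 or knockout replicate 1. STIP1, the adaptor that hands clients from Hsp70 to Hsp90, went from 440.0 and 430.4 CPM to 572 and 554 (0.37 ± 0.08, adjusted p = 0.0030). It stood at 465 and 402 CPM in the knockdown, on both sides of the controls. PTGES3, the p23 protein that holds closed Hsp90, went from 196 and 203 CPM to 276 and 244 (0.38 ± 0.09, adjusted p = 0.0033), with 231 and 204 in the knockdown (0.13 ± 0.09). FKBP4, a prolyl isomerase of steroid receptor complexes, went from 361 and 356 CPM to 453 and 436 (0.31 ± 0.08, adjusted p = 0.0082), with 355 and 324 in the knockdown (-0.08 ± 0.08). AHSA1, which speeds up ATP hydrolysis by Hsp90, rose in the knockout (205 and 194 to 254 and 253 CPM, 0.35 ± 0.09, adjusted p = 0.0072) and, with 254 and 212 CPM, in the knockdown (0.22 ± 0.09, adjusted p = 0.043). The last call was lost without knockdown replicate 1 (0.08, adjusted p = 0.37) and without any one control or knockout library (adjusted p 0.12 and 0.29 for controls 1 and 2, 0.091 and 0.080 for knockouts 1 and 2).

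ST13 (chromosome 22, 40824535 to 40856639), the Hip protein that holds Hsp70 in its ADP-bound state, fell in both depletions. It stood at 612 and 605 CPM in control, 497 and 475 in the knockout (log2 change -0.33 ± 0.08, adjusted p = 0.0085) and 489 and 419.6 in the knockdown (-0.42 ± 0.09, adjusted p = 0.00033). Without any one control or knockout library the knockout call was lost (changes from -0.36 to -0.29), while the knockdown call held under all 15 alternatives. CACYBP, a binder of the SIAH ubiquitin ligases, passed the test in neither (0.16 ± 0.09 and -0.20 ± 0.09), but the knockdown was below the knockout (-0.36 ± 0.09, adjusted p = 0.0039), with 297 and 295 CPM in control, 340.3 and 321 in the knockout and 286 and 230.3 in the knockdown. BAG3, the exchange factor of selective autophagy and a sensitive HSF1 target, stood at 13.7 and 16.5 CPM in control, 17.2 and 15.9 in the knockout and 16.8 and 18.7 in the knockdown, and passed no test (0.13 ± 0.16 and 0.23 ± 0.16).

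HSF1, the main activator of the heat shock genes, stood at 33.1 and 40.01 CPM in control and 21.8 and 27.5 in the knockout, a fall of its messenger RNA in the group where most of the chaperone genes were higher (log2 change -0.57 ± 0.15, adjusted p = 0.0094). Without control replicate 2 or knockout replicate 1 the change was -0.43 and -0.41 (adjusted p = 0.15 and 0.12). The genes around it moved with it: of 59 other genes within 5 Mb on chromosome 8 with an average log2 CPM above 2, 37 were lower in the knockout, with a median log2 change of -0.57. In the knockdown HSF1 stood at 33.9 and 47.1 CPM (0.15 ± 0.15, adjusted p = 0.43), and the median of its neighbours was 0.0004. HSF1 was higher in the knockdown than in the knockout (0.72 ± 0.15, adjusted p = 0.00062), with a median of 0.48 for its neighbours, 36 of which were higher. The part of this stretch of chromosome in the fall of HSF1 was not tested. HSF2, a factor that acts with HSF1 and in development, stood at 106 and 116 CPM in control, 107 and 102 in the knockout and 124 and 102 in the knockdown, and passed no test (-0.09 ± 0.10 and 0.03 ± 0.10), while the median of its 24 neighbours on chromosome 6 was -0.28 in the knockout.

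The 8 CCT genes, which together build 1 complex, rose in part in the knockout and split in the knockdown. In the knockout both libraries lay above both controls for all 8, and 5 passed the test (CCT2, CCT4, CCT5, CCT6A and CCT7), with a median log2 change of 0.27. CCT2 went from 616 and 573 CPM in control to 805 and 768 (0.40 ± 0.09, adjusted p = 0.0026), and CCT6A from 507 and 493 to 698 and 679 (0.46 ± 0.09, adjusted p = 0.00062). CCT4 went from 902 and 914 to 1107 and 1115 CPM (0.29 ± 0.09, adjusted p = 0.017), CCT5 from 894 and 934 to 1092 and 1090.5 (0.26 ± 0.09, adjusted p = 0.039), and CCT7 from 1079 and 1072 to 1314 and 1305 (0.28 ± 0.08, adjusted p = 0.019). The changes of these 5 subunits ranged from 0.26 to 0.46 on the log2 scale. Of their calls only that of CCT6A held under all 15 alternatives. Those of CCT4, CCT5 and CCT7 were lost without any one control or knockout library, and that of CCT2 without control replicate 2 or knockout replicate 1. CCT8 with 522 and 516 CPM in control and 641 and 601 in the knockout just missed the test (0.26 ± 0.09, adjusted p = 0.055) and passed it under 10 of the 15 alternatives. CCT3 stood at 1569.9 and 1552 against 1635 and 1578 CPM (0.04 ± 0.08), and TCP1, the CCT1 subunit, at 870.4 and 890.1 against 928 and 909 CPM (0.06 ± 0.09). Around TCP1 on chromosome 6 the median of 25 neighbours within 5 Mb was -0.28 in the knockout, 11 of them lower.

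In the knockdown TCP1 and CCT6A were higher than control and CCT2, CCT3, CCT7 and CCT8 lower. TCP1 stood at 1213 and 1032 CPM (0.35 ± 0.09, adjusted p = 0.0021) and CCT6A at 729 and 617 (0.43 ± 0.09, adjusted p = 0.00035). CCT7 (chromosome 2, 73233420 to 73253021) was lowest relative to control, at 837 and 725 CPM (-0.46 ± 0.08, adjusted p = 0.00013). CCT3 stood at 1276 and 1145 CPM (-0.37 ± 0.08, adjusted p = 0.00097), CCT8 at 465 and 368 (-0.32 ± 0.09, adjusted p = 0.0087) and CCT2 (chromosome 12, 69585426 to 69601570) at 537 and 446 (-0.27 ± 0.09, adjusted p = 0.016). For each of these 4 both knockdown libraries lay below both controls, and replicate 2 was the lower one. The call of CCT2 was lost without control replicate 1 (-0.23, adjusted p = 0.17) and with the compared groups fitted alone (-0.24, adjusted p = 0.065), and that of CCT8 without control replicate 1 or control replicate 2 (adjusted p 0.066 and 0.051) and with the length correction (-0.19, adjusted p = 0.066). CCT4 at 949.6 and 813 CPM and CCT5 at 897 and 758 did not pass the test (-0.04 ± 0.09 and -0.14 ± 0.09).

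**Figure D4:**
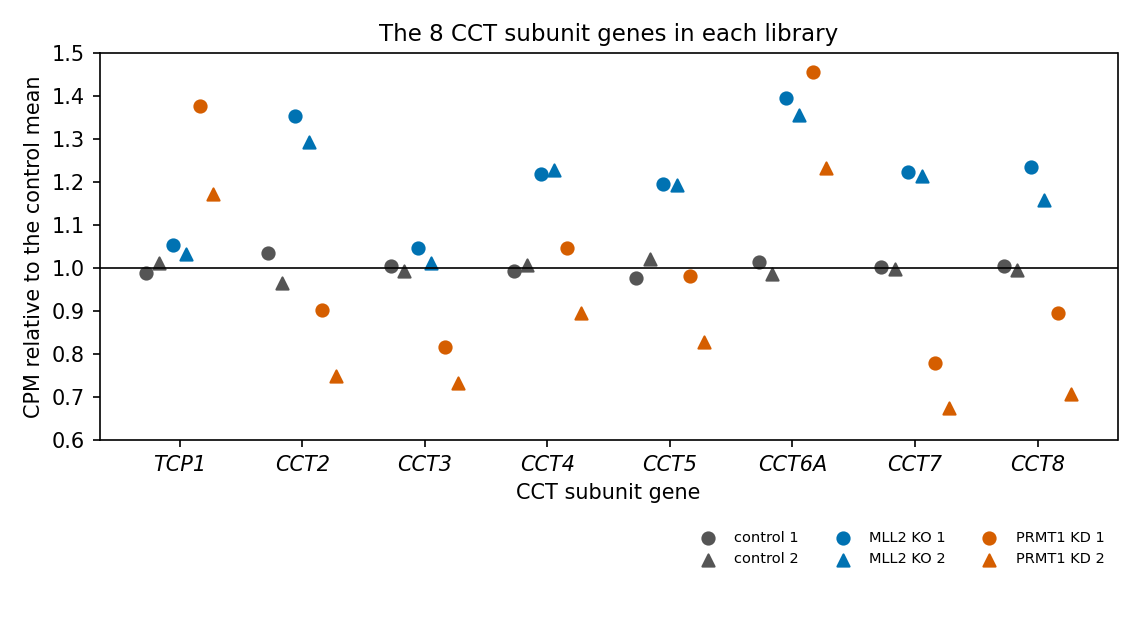
CPM of the 8 CCT subunit genes in each library divided by the mean of the 2 control libraries (circles, replicate 1; triangles, replicate 2). The knockout libraries lie above both controls for every subunit, while in the knockdown TCP1 and CCT6A are above and CCT2, CCT3, CCT7 and CCT8 below them.

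Set directly against the knockout, the knockdown was lower for 19 of the 40 tested members and higher for 6, 47.5% and 15%, where 21.4% and 19.4% of all tested genes were called lower and higher (40.7% in either direction). Among genes above an average log2 CPM of 2 the shares were 29.3% and 24.2%. Both knockdown libraries lay below both knockout libraries for 22 members and above them for 6, where 35.1% and 34.9% of all tested genes did so. The median log2 difference of the members was -0.13 and that of all tested genes 0.01. CCT genes made up 6 of the 19, with the lowest values for CCT7 (-0.75 ± 0.08, adjusted p = 5.8e-07) and CCT2 (-0.68 ± 0.09, adjusted p = 4.2e-06), followed by CCT8 (-0.58 ± 0.09, adjusted p = 5.2e-05). CCT3 (-0.41 ± 0.08), CCT5 (-0.40 ± 0.09) and CCT4 (-0.33 ± 0.09) were lower as well. CCT6A did not pass the test (-0.03 ± 0.09), and TCP1 was higher (0.29 ± 0.09, adjusted p = 0.010). The 8 CCT genes together summed to 6959 and 6946 CPM in control, 8220 and 8046 in the knockout, and 6903 and 5904 in the knockdown. Outside CCT, STIP1 (-0.38 ± 0.08, adjusted p = 0.0011), FKBP4 (-0.39 ± 0.08, adjusted p = 0.00054), DNAJA2 (-0.45 ± 0.09, adjusted p = 0.00023), HSPA4L (-0.33 ± 0.08, adjusted p = 0.0030), DNAJC7 (-0.35 ± 0.09, adjusted p = 0.0038) and PTGES3 (-0.26 ± 0.09, adjusted p = 0.023) were lower in the knockdown. The call of PTGES3 was lost in 5 of the 15 alternatives, among them the length correction (-0.13, adjusted p = 0.20) and leaving out knockout replicate 1 (0.33) or knockdown replicate 2 (0.054). The 6 that were higher in the knockdown than in the knockout were HSPA2 (1.02 ± 0.28, adjusted p = 0.0058), HSF1, DNAJB6, DNAJB4, BAG2 and TCP1. Without knockout replicate 1 the calls of HSPA2 (adjusted p = 0.052) and TCP1 (0.099) were lost, and without knockout replicate 2 those of BAG2 (0.080) and TCP1 (0.13). Of the 25 direct calls 17 held under all 15 alternatives: CCT2, CCT3, CCT5, CCT7, CCT8, CHORDC1, DNAJA1, DNAJA2, DNAJB4, DNAJB6, DNAJC7, FKBP4, HSF1, HSP90AB1, HSPA4L, HSPE1 and STIP1. HSPA8, HSPH1, HSP90AA1, HSPA4, HSPA9 and DNAJC2 were not told apart between the depletions, with differences from -0.08 ± 0.08 (HSPH1) to 0.15 ± 0.09 (HSP90AA1).

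**Figure D5:**
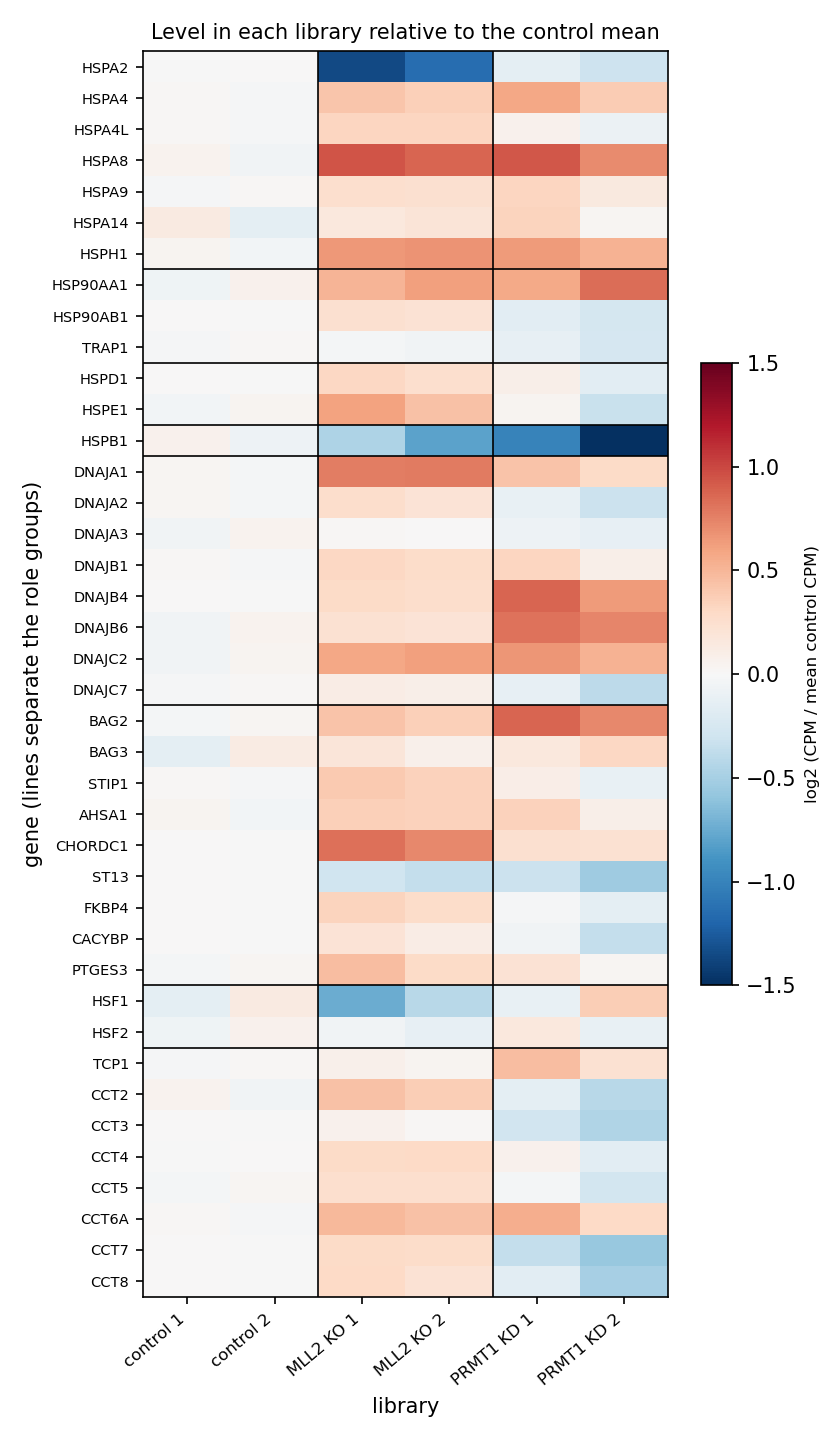
Log2 ratio of each member's CPM to the mean of the 2 control libraries, in every library (blue, below; red, above), with black lines between the role groups and the sample groups. HSPA8, HSPH1, HSP90AA1, DNAJA1 and DNAJC2 are red in all 4 depleted libraries, and most rows are paler or bluer in the second knockdown library than in the first.

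The 4 members with a 3-unit heat shock element in the promoter window were compared with the 31 other tested members that have a window. Of the 4, HSPA8, DNAJA1 and CHORDC1 rose in the knockout, with a median log2 change of 0.77 over the 4, and all 4 rose in the knockdown, with a median of 0.57. Of the 31 others, 18 rose and 2 fell in the knockout (median 0.28), and 9 rose and 8 fell in the knockdown (median -0.03). HSPH1, HSP90AA1 and DNAJC2, which rose in both depletions, were among those with no exact match in the window. This does not show that they lack an element. The window of HSP90AA1, a gene on the minus strand, runs from 102139700 to 102139999. It lies just upstream of the 5′ end of the annotated gene (102080742 to 102139699), and starts inside the gene were not searched. With 4 genes these medians are descriptions, and nothing is drawn from them about the factor.

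A wider list of 92 other chaperone genes, co-chaperones and proteases was set beside the members. Of these 81 were tested, and 13 were higher and 9 lower in the knockout (median log2 change 0.03), 21 higher and 25 lower in the knockdown (median -0.09). These are 16.0% and 11.1% in the knockout and 25.9% and 30.9% in the knockdown, near the shares of genes above an average log2 CPM of 2 (15.0% and 14.2%, 28.9% and 31.7%). Among 8 tested Hsp70 relatives and exchange factors, BAG1 rose in both depletions, from 48.6 and 59.9 CPM to 71.5 and 68.8 in the knockout (0.37 ± 0.10, adjusted p = 0.012) and to 95.2 and 90.1 in the knockdown (0.77 ± 0.10, adjusted p = 2.7e-06). STUB1, the CHIP ubiquitin ligase that BAG2 restrains, stood at 112 and 119 CPM in control, 109 and 115 in the knockout and 84.2 and 85.9 in the knockdown, where it fell (-0.45 ± 0.09, adjusted p = 0.00020). Of 17 further Hsp90 co-chaperones 3 rose and 3 fell in the knockout, while 2 rose and 11 fell in the knockdown, with a median log2 change of -0.44. FKBP8, an outer membrane immunophilin, went from 193 and 207 CPM in control to 144 and 154 in the knockout (-0.43 ± 0.08, adjusted p = 0.00090) and 63.5 and 65.8 in the knockdown (-1.63 ± 0.09, adjusted p = 9.5e-12). TOMM34, which links Hsp70 and Hsp90 to protein import into mitochondria, went from 92.3 and 98.4 to 52.1 and 51.5 CPM in the knockdown (-0.88 ± 0.10, adjusted p = 2.2e-07), and SUGT1, the partner of Hsp90 at kinetochores, rose from 73.8 and 78.5 to 119 and 121 CPM (0.66 ± 0.09, adjusted p = 2.7e-06).

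The partners of CCT and of the mitochondrial chaperones were mixed. Among 10 genes of prefoldin, which delivers actin and tubulin to CCT, and of other CCT partners, 2 rose in the knockout (PFDN4, 0.39 ± 0.13, adjusted p = 0.030, and VBP1, 0.31 ± 0.10, adjusted p = 0.032). That is 20%, and none fell, where 15.0% of genes above an average log2 CPM of 2 rose and 14.2% fell. In the knockdown 1 rose (TXNDC9, 0.26 ± 0.11, adjusted p = 0.046) and 1 fell, PFDN6, from 42.1 and 40.3 CPM in control to 23.5 and 21.9 (-0.86 ± 0.12, adjusted p = 4.7e-06). Each is 10%, against 28.9% and 31.7% of genes above that level. Against the knockout, 6 of the 10 were lower in the knockdown (60%), as were 6 of the 8 CCT genes (75%). Of all genes above an average log2 CPM of 2, 29.3% were lower in that comparison. With so few genes these shares are descriptions. Among 16 genes of mitochondrial protein quality control, LONP1, the matrix protease, fell in the knockout (228 and 243 to 160.2 and 175 CPM, -0.49 ± 0.08, adjusted p = 0.00024), and GRPEL1, the exchange factor of HSPA9, rose (0.26 ± 0.09, adjusted p = 0.034). In the knockdown 6 rose and 4 fell (37.5% and 25%, against 28.9% and 31.7%), among them CLPB, a disaggregase, from 128 and 136 to 208 and 209 CPM (0.66 ± 0.08, adjusted p = 1.5e-06), and GRPEL2, the paralog of GRPEL1, from 94.9 and 96.6 to 46.8 and 47.8 CPM (-1.02 ± 0.09, adjusted p = 1.2e-08).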

How the data were processed

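Total RNA was extracted with TRIzol and made into libraries with the TruSeq Stranded Total RNA Gold kit, per the labels' protocols. Each library has its own table, deposited by the authors with unscaled read counts for every gene. Per the submitters' processing notes, the steps were FastQC 0.11.4, Trim Galore 0.6.10, STAR 2.7.5a on hg38 and featureCounts 1.5.0-p1, with DESeq2 1.36.0 for their own tests. Per the file headers, featureCounts 2.0.1 counted pairs on GENCODE 34 with a mapping quality of at least 10 and reverse strand (setting 2), so the sources differ in the version. The headers call the alignments WTshNT, MKshNT and WTshPR, names that the labels do not explain.

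From these counts, genes were kept by filterByExpr (17575 of 60669), scaled by TMM and fitted in edgeR 4.0.16 (R 4.3.3, limma 3.58.1; glmQLFit and glmQLFTest, all 6 libraries, 1 term a group). The threshold for a call was 0.05 on the p-value adjusted by Benjamini-Hochberg over all tested genes. The standard error is the log2 change over the root of F. Gene symbols were found for 60370 genes. Members, lists and comparisons were chosen with earlier results of these data known. The named genes are, per comparison, up to 10 members per direction with the smallest adjusted p, every member called in opposite directions, and up to 2 per direction from each other list. Other members are given for completeness. The 15 alternatives per comparison cover scaling, DESeq2 1.42.0, filters, groups fitted alone, the replicate block, GC and length corrections and each library left out. Where a fit leaves 1 library in a group, that library is assumed to vary like the others. Depth of 20061471 to 22351532 counts limits precision for members near the level of HSPA2. Floors for a count of 0 cover counting error only.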

Additional observations from a re-analysis of the deposited data

Results flagged for a closer look

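HSP90AB1, CCT2 and CCT7 were called in opposite directions in the 2 depletions, and for each the difference between the depletions was itself past the threshold. For HSP90AB1, the constitutive cytosolic Hsp90, the knockdown minus the knockout was -0.44 ± 0.08 on the log2 scale (edgeR adjusted p = 0.00018). For CCT2 it was -0.68 ± 0.09 (adjusted p = 4.2e-06) and for CCT7 -0.75 ± 0.08 (adjusted p = 5.8e-07). These differences held under all 15 alternatives, but the opposite calls themselves were less firm: the knockout rise lost its call in 4, 2 and 4 of the 15 (HSP90AB1, CCT2 and CCT7), and the knockdown fall in 10 and 2 (HSP90AB1 and CCT2), while that of CCT7 held. In all 3 genes both knockout libraries lay above both controls and both knockdown libraries below them. With 2 libraries a group, no group was large enough to look for a single library far from the others.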

How the results depend on the processing

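Of 1800 member values under alternatives (40 members, 3 comparisons, 15 alternatives each), 1584 kept their side of the threshold, 83 gained a call and 133 lost one. Among uncalled values 62 changed sign, and no called value did. Leaving out 1 library at a time moved the counts most: for the knockout 10 to 31 members were called in place of 27 (8 to 27 higher, 1 to 4 lower), for the knockdown 15 to 30 in place of 23 (11 to 17 higher, 4 to 16 lower). The extremes came without control replicate 2 or knockout replicate 1 (10 calls) and without either knockdown library (31), and without control replicate 1 (15) or knockdown replicate 1 (30). Fitting control and knockdown alone left 5 lower calls in place of 9. The cause was not tested, beyond the smaller number of libraries.

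Of the 18 knockout calls that some alternative ended, 17 were lost only when a library was left out, with adjusted p up to 0.307. In the knockdown 1 of 8 was lost only in that way.

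The labels do not say whether the replicate numbers pair the samples. Deviations of libraries with the same number correlated at 0.075 (control and knockout), 0.046 (control and knockdown) and 0.203 (knockout and knockdown) over 11376 genes. Such weak correlations cannot exclude a pairing. With the replicate block 26 members were higher and 4 lower in the knockout, 15 and 11 in the knockdown, and 6 and 19 in the knockdown against the knockout. It ended no member's call. Over transcript lengths the knockdown changed unevenly, with a median log2 change of -0.45 for genes under 1000 nt, -0.07 from 1000 to 8000 nt, where 35 members lie, and 0.16 above 8000 nt.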

Other observations

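The small heat shock gene HSPB8, a partner of BAG3 in selective autophagy, moved in opposite directions. It stood at 3.34 and 3.89 CPM in control, 0.971 and 0.196 in the knockout and 7.50 and 7.24 in the knockdown. The knockout was below control (log2 change -2.60 ± 0.44, edgeR adjusted p = 0.00024), the knockdown above it (1.03 ± 0.35, adjusted p = 0.020), and the 4 counts of knockout replicate 2 set the lower end. BAG3 itself passed no test. ZFAND2A, a proteasome-associated protein whose gene is strongly heat-inducible, stood at 12.0 and 9.25 CPM in control, 12.2 and 13.05 in the knockout and 25.1 and 24.4 in the knockdown, where it rose (1.22 ± 0.16, adjusted p = 2.8e-06). Of 9 tested genes in this list of further heat-inducible targets of HSF1, 2 fell in the knockout (HSPB8 and IER5, 22.2%) and none rose. Among genes above an average log2 CPM of 2, 14.2% fell and 15.0% rose there. The median log2 change of the 9 was -0.14. Both knockout libraries lay below both controls for 7 and above them for 2, against 32.5% and 30.1% of all tested genes. In the knockdown 3 rose (ZFAND2A, DEDD2 and HSPB8) and 1 fell (IER5), 33.3% and 11.1%, against 28.9% and 31.7%. HSPA6, an Hsp70 gene that is nearly silent without stress, had 7 and 12 counts in control, 4 and 1 in the knockout, and 13 and 20 in the knockdown.

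DNAJC6, the J-domain protein auxilin that uncoats clathrin vesicles, differed between the depletions. It stood at 34.03 and 34.2 CPM in control, 55.1 and 60.4 in the knockout (0.76 ± 0.11, adjusted p = 5.2e-05) and 23.5 and 26.1 in the knockdown, with a difference between the depletions of -1.22 ± 0.11 (adjusted p = 3.6e-08).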
